A study of Drosophila melanogaster with 2 samples.

Results

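The regions described here are ERR peaks of the fly embryo that lie between genes and away from gene starts. A peak was counted when its summit, the base of highest signal, fell more than 500 bp from every annotated transcript start and outside every annotated gene, transposable elements being left out. Of the 2892 optimal peaks, 257 met this rule (8.89%, 95% Wilson interval 7.90 to 9.98). Within the optimal set, membership rests on position alone. The optimal set itself equals the 2892 pooled regions of highest signal, so signal and replicate agreement are not independent of being listed, and the lowest signal of an intergenic peak was 69.3. Because 2 called peaks can overlap, the 257 peaks cover 248 distinct loci. The peaks came from chromatin immunoprecipitation with sequencing on whole embryos of both sexes, aged 0 to 24 h, from a transgenic line in which ERR carries a green fluorescent protein tag at its C-terminus. The tag was precipitated with an antibody against it. There are 2 biological replicates, numbered 2 and 3, in 1 group, and no untagged or input sample was analysed here. Depth is unknown, because the region lists hold no read counts, and whole embryos do not show which cells bear a peak.

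ERR, the fly oestrogen-related receptor, is an orphan nuclear receptor with a zinc-finger DNA-binding domain. It switches on genes of glycolysis in the middle of embryogenesis, ahead of larval growth. Receptors of its family bind as monomers or dimers to a half-site of the AGGTCA type preceded by a short extension. In a compact genome such as that of the fly, enhancers lie upstream of genes, downstream of them and in introns, so a peak between genes cannot be assigned to a target from its position, and the genes on both sides are given here.

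Windows that reach 100 bp to each side of the summit show the DNA that carries the strongest of these peaks. Those below are the windows of 4 of the 8 strongest intergenic peaks, named by the protein-coding genes on their left and right, on the forward strand of dm6 and read from the reference genome sequence of NCBI RefSeq. Capitals mark the short words AGTGTA and ACAGTG on either strand. They were picked after seeing which words the intergenic windows held more often than intergenic sequence at large. Of 2080 words ranked by that excess, they took places 1 and 5.
mtSSB/tara (chr3R:16222402-16222602): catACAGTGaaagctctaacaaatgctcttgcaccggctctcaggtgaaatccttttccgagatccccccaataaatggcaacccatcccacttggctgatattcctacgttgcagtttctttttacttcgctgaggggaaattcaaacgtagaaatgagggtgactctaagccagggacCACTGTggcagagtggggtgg
CG17896/CG17778 (chrX:493896-494096): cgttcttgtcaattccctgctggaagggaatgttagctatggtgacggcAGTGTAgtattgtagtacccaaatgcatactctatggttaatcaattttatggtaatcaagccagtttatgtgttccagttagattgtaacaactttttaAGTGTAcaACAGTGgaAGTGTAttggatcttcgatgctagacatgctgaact
CG3149/AdamTS-B (chrX:5696441-5696641): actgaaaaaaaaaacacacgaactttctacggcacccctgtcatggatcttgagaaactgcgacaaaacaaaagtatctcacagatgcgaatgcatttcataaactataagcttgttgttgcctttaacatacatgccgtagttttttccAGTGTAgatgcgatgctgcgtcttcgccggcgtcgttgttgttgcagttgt
RasGAP1/CG10809 (chr3L:9855905-9856105): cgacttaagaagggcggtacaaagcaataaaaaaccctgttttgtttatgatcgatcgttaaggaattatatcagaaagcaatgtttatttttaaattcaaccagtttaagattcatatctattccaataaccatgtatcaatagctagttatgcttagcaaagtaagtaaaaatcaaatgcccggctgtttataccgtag
The RasGAP1/CG10809 window holds neither word. Over all intergenic peaks, 95 of 257 windows (37.0%, 31.3 to 43.0) held one or both, against 38.7% of intronic peak windows, 26.3% of promoter peak windows and 13.8% of all windows of that size tiled over intergenic sequence. Among the 20 strongest intergenic peaks, 10 held one. AGTGTA was in 23.3% of intergenic, 17.1% of intronic and 11.6% of promoter peak windows. ACAGTG was in 16.3%, 25.3% and 17.2%, so its intergenic share was near the promoter share and below the intronic one. In the intergenic tiles AGTGTA was in 7.55% and ACAGTG in 7.04%. Since the words were chosen on these windows, the shares are a description and were not tested.

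The next windows hold the ERR motif TNAAGGTCA, in which N is any base, and are shown because the motif is the sequence that the receptor's DNA-binding domain is known to read. Capitals mark the 9 bases of the match; the match lies on the reverse strand at hemo/CG7694 and LPCAT/Hex-A, where its complement is printed.
CG5290/Eip75B (chr3L:17950435-17950635): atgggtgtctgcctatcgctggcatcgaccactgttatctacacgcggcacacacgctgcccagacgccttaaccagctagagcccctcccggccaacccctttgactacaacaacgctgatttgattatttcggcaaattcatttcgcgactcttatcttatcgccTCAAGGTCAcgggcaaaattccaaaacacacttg
hng3/CG13898 (chr3L:781251-781451): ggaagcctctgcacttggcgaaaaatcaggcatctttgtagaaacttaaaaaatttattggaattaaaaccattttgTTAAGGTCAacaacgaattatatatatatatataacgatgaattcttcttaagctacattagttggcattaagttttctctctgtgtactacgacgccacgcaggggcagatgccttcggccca
Alp13/Fmr1 (chr3R:10080857-10081057): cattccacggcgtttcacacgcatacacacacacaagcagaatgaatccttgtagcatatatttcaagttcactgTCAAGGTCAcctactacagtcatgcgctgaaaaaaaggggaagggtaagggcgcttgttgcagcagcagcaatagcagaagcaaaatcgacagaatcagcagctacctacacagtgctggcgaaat
hemo/CG7694 (chr3R:18572400-18572600): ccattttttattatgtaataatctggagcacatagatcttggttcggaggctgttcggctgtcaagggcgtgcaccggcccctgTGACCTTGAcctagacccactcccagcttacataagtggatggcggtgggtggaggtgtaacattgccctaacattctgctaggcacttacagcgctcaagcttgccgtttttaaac
LPCAT/Hex-A (chrX:9580671-9580871): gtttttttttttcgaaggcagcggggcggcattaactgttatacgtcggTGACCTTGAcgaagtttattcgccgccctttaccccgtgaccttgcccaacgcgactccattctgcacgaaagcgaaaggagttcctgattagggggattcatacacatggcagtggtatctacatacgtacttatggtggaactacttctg
The match began TCAAGG in 4 of these 5 windows and TTAAGG at hng3/CG13898. Its centre lay 71 bp to the right of the summit at CG5290/Eip75B, and 19, 21, 12 and 47 bp to the left at hng3/CG13898, Alp13/Fmr1, hemo/CG7694 and LPCAT/Hex-A.

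For the sequence available, intergenic peaks were sparser than intronic and promoter peaks and denser than exonic ones. The intergenic class of sequence, with the same distance limit applied to every base, spans 36.5 Mb, and the 257 peaks came to 7.05 per Mb (exact 95% Poisson interval 6.21 to 7.96). Intronic peaks, defined as summits within genes, outside exons and beyond the same 500 bp, numbered 776 and came to 14.7 per Mb (13.7 to 15.8). Promoter peaks, within 500 bp of a start, numbered 1794 and came to 98.9 per Mb (94.4 to 104). Exonic peaks, with summits in exons beyond the same 500 bp, numbered 65 and came to 2.46 per Mb (1.90 to 3.13). These intervals cover counting error over peaks only.

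Within the intergenic class the density was lower at larger distances from the nearest transcript start. It was 23.7 peaks per Mb at 501 to 1000 bp (67 peaks), 15.3 at 1001 to 2000 bp (70 peaks), 8.25 at 2001 to 5000 bp (74 peaks), 3.63 at 5001 to 10000 bp (26 peaks), 3.20 at 10001 to 20000 bp (16 peaks) and 0.504 farther out (4 peaks). In the same bins introns held 43.1, 26.6, 16.1, 11.3, 5.02 and 2.31 peaks per Mb. The intervals of the 2 classes overlapped at 10001 to 20000 bp and did not overlap in the other 5 bins. Repeat-masked bases made up 20.4% of intergenic sequence at 501 to 1000 bp and 41.5% beyond 20000 bp, and over unmasked bases the densities there were 29.8 and 0.862 per Mb. The median distance was 1847 bp and the largest 36664 bp. Of the 4 most distant peaks, 3 lay between NijA and CG43245.

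**Figure D1:**
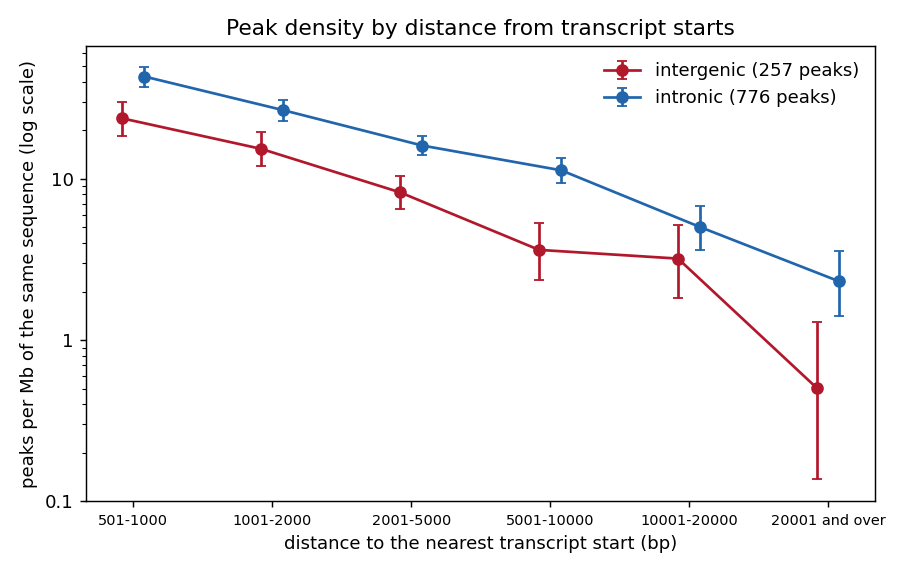
Peaks per Mb of sequence of the same class and distance bin (log axis) against distance to the nearest transcript start in bp, for the 257 intergenic and 776 intronic peaks; bars are exact 95% Poisson intervals. Intergenic density ran from 23.7 per Mb in the nearest bin to 0.504 in the farthest, and lay below intronic density in every bin.

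The limit of 500 bp cuts through a continuous range. The nearest summits outside genes that missed it lay 478, 491 and 500 bp from a start, with signals of 126, 121 and 373. The nearest that met it lay 501, 504 and 505 bp away, with signals of 472, 90.5 and 87.0. The first of these 3 members is the CG17896/CG17778 peak, the fourth strongest of all, so it lies 1 bp past the limit.

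By their protein-coding neighbours, the 3 strongest intergenic peaks lay between CG12824 and Gapdh1, between mtSSB and tara, and between Su(z)2 and CG13323. The highest signal, 852 in the peak caller's units, belonged to a region on 2R (7791207 to 7792047). Its summit fell between the 3' ends of CG12824 and Gapdh1, which encodes the glycolytic enzyme glyceraldehyde-3-phosphate dehydrogenase. The summit was 485 bp beyond the end of Gapdh1 and 246 bp beyond that of CG12824. The gap ends at 7791900, so the region itself runs into Gapdh1. Of the 257 regions, 239 lay wholly outside genes. The overlapping region had a signal of 493 in replicate 2 (rank 13 of 30000) and 360 in replicate 3 (rank 18). A second summit in the same region had a signal of 189. The next peak (3R, 16222329 to 16222646) had a signal of 589 and lay 3149 bp upstream of tara, which encodes the SERTA-domain protein Taranis, with signals of 338 (rank 35) and 256 (rank 39) in replicates 2 and 3. The third (2R, 13035144 to 13035522), with a signal of 572, lay 9321 bp beyond CG13323 and 27463 bp beyond Su(z)2, a Polycomb group gene, and reached 305 (rank 43) and 270 (rank 32).

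The other strong peaks had varied neighbours. A peak with a signal of 472 (X, 493846 to 494157) lay between the divergent starts of CG17896 and CG17778, and reached 291 in replicate 2 (rank 49) and 182 in replicate 3 (rank 71). A signal of 429 was found between the 3' ends of blw, the ATP synthase alpha subunit gene, and CycB, the cyclin B gene, on 2R, with 242 (rank 67) and 194 (rank 61) in replicates 2 and 3. The sixth peak, between CG8929 and CG16739 on 2R, had a signal of 415, and the seventh and eighth had 351 between CG3149 and the metalloprotease gene AdamTS-B and 342 between RasGAP1 and CG10809. Peaks 9 to 12 lay in gaps described below or between Teh1 and Glut4EF (signal 317), where the gene CG46467 shares the edge of Glut4EF. Peaks 13 to 20, with signals between 227 and 269, lay between COX7AL2 and CG31668, CG12643 and alpha-Man-Ia, alpha-Est9 and alpha-Est8, LPCAT and Hex-A, Atg13 and stck, CG7484 and Crtc, CG5290 and Eip75B, and Sol1 and Cyp9f2. These include genes for a cytochrome c oxidase subunit 7A-like protein (COX7AL2), an autophagy factor (Atg13), the CREB coactivator Crtc and a cytochrome P450 (Cyp9f2). All 20 overlapped regions within the highest 285 of replicate 2 and the highest 361 of replicate 3.

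The median signals of the classes lay close together. The intergenic median was 94.6 (quartiles 80.3 and 128), against 97.6 (80.6 and 134) for intronic and 98.7 (80.1 and 139) for promoter peaks. Of the 257 intergenic peaks, 21.4% were in the highest 25% of the optimal set by signal, against 23.6% of intronic peaks, a difference of -2.18 percentage points (95% Newcombe interval -7.71 to 3.94). Against promoter peaks, of which 26.3% were in that top 25%, the difference was -4.91 points (-9.94 to 0.859). Neither passed the two-sided Fisher's exact test (adjusted p = 0.495 and 0.187 over the 2 comparisons). At the top end intergenic signals reached 852, intronic signals 1667 and promoter signals 3946. P-values here and below are across peaks, which are not biological replicates.

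Every intergenic peak overlapped some region in each replicate's list of 30000, and the replicates ordered them differently in the lower range. Of the 257, 224 (87.2%, 82.5 to 90.7) overlapped one of the 2892 highest regions in replicate 2. In replicate 3 the count was 200 (77.8%, 72.4 to 82.5), and 171 (66.5%, 60.6 to 72.0) did so in both. Only 4 reached neither. Spearman's rho between the signals in the replicates was 0.60 over the 257 peaks, a description that holds only for peaks already selected on the pooled signal of the same libraries. The peak between ems and Art9, picked because it was the farthest apart, had a signal of 49.5 in replicate 2 (rank 2002) and 13.7 in replicate 3 (rank 15978). The peak between Zip89B and Sulf1, at the other extreme, had 18.6 in replicate 2 (rank 11824) and 38.3 in replicate 3 (rank 2011).

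In replicate 3 fewer intergenic than intronic peaks were recovered, 77.8% against 86.7%, a difference of -8.91 points (-14.8 to -3.59; two-sided Fisher's exact test, adjusted p = 0.00586 over 6 comparisons). In replicate 2 the shares were 87.2% for intergenic and 83.0% for intronic peaks (4.17 points, -1.09 to 8.69; Fisher's exact test, adjusted p = 0.234). Promoter peaks were recovered at 88.5% in replicate 2 and 79.2% in replicate 3, and intergenic peaks differed from them by -1.36 points (-6.21 to 2.52) and -1.39 points (-7.15 to 3.65), with an adjusted p of 0.623 by Fisher's exact test for each. By the same exact test, the difference in replicate 3 missed the threshold when summits within 100 bp were required (adjusted p = 0.0615) and when 1000 or 5000 top regions were used (adjusted p = 0.551 and 1). Part of every overlap is built in, because the optimal set is derived from these 2 libraries.

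**Figure D2:**
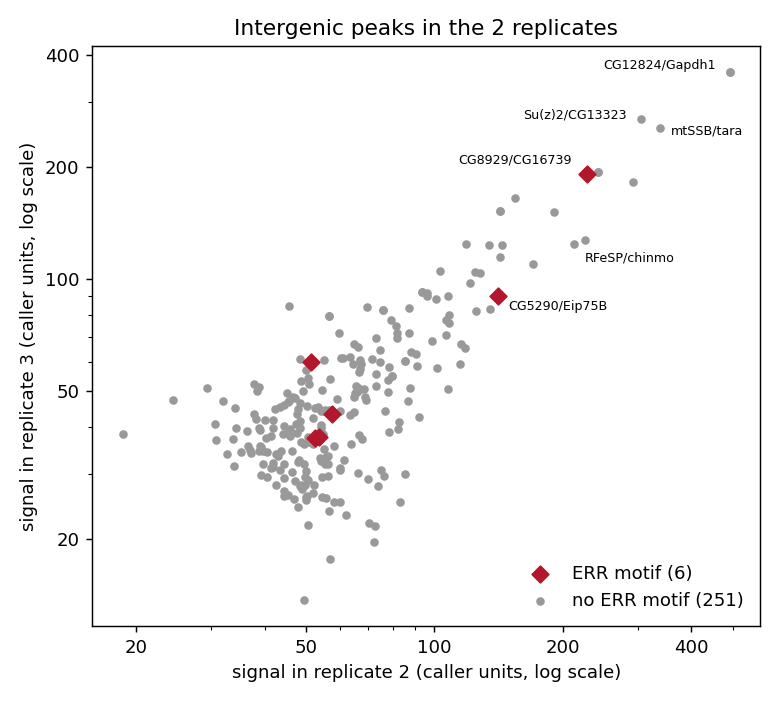
Signal of the highest overlapping region in replicate 3 against that in replicate 2 (both log axes, caller units) for each of the 257 intergenic peaks; red diamonds mark the 6 with the ERR motif in the summit window. The strongest peaks keep a like order in both replicates, up to 493 and 360 at CG12824/Gapdh1, and the points spread at low signal.

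Peaks were spread unevenly over the chromosome arms. They numbered 67 on 2L, 39 on 2R, 71 on 3L, 41 on 3R, 34 on X and 5 on chromosome 4, which gave 9.98, 5.24, 7.82, 5.34, 6.40 and 20.4 per Mb of intergenic sequence. The interval on chromosome 4 was 6.62 to 47.6, and its 5 peaks made up 41.7% of the 12 optimal peaks there, with signals between 72.5 and 156. They lay between dati and lgs, between Asator and zfh2 (2 peaks), between myo and ey, and between fuss and toy. The genes ey and toy encode the Pax6 homologues of the fly eye field. These genes are named for being on that chromosome, after their values were seen.

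Many intergenic peaks shared a gap between the same pair of genes. Of 5532 such gaps between neighbouring protein-coding genes, 191 held any peak. Of the 191, 38 held at least 2 peaks and together 104 of the 257, and 15 held at least 3. In some of the 38 the 2 peaks overlap and form 1 locus, as between blw and CycB. The gap around a peak had a median width of 11216 bp, against 1674.5 bp over all gaps with sequence of the class. The part of gap width in this sharing was not tested. The fullest gap was that between RFeSP, the Rieske iron-sulphur protein gene of respiratory complex III, and chinmo, which encodes a BTB zinc-finger transcription factor of neuronal timing. It held 7 peaks over 32788 bp with signals between 78.1 and 340. The strongest (2L, 1632715 to 1632966) lay 18404 bp upstream of chinmo and 18694 bp upstream of RFeSP. It had 212 in replicate 2 (rank 86) and 125 in replicate 3 (rank 147). The second, with a signal of 276, lay 12419 bp upstream of chinmo and 24679 bp upstream of RFeSP. It had 170 (rank 129) and 110 (rank 194) in replicates 2 and 3. All 7 overlapped one of the 2892 highest regions in replicate 2 and 6 did in replicate 3.

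The gap between mtSSB, the mitochondrial single-stranded DNA-binding protein gene, and tara held 4 peaks. Beside the one of 589, a peak of 287 lay 1141 bp upstream of tara, with an overlapping one of 79.3, and a peak of 92.0 lay 2003 bp upstream of mtSSB. In replicate 3 the last of these ranked 6345, against 953 in replicate 2. The gap between CG5290 and the 3' end of Eip75B, the ecdysone-induced nuclear receptor E75, held 5 peaks with signals between 97.7 and 227, and 4 of them lay within 4361 bp of that end. Other gaps with at least 4 peaks were picked for that count: hng3 to CG13898 (5), CG44362 to CG7560 (5), Hacd1 to the rhodopsin gene Rh5 (4) and NijA to CG43245 (4). Peaks that overlap each other share sequence and can share 1 replicate region, which was so for 18 of the 257.

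**Figure D3:**
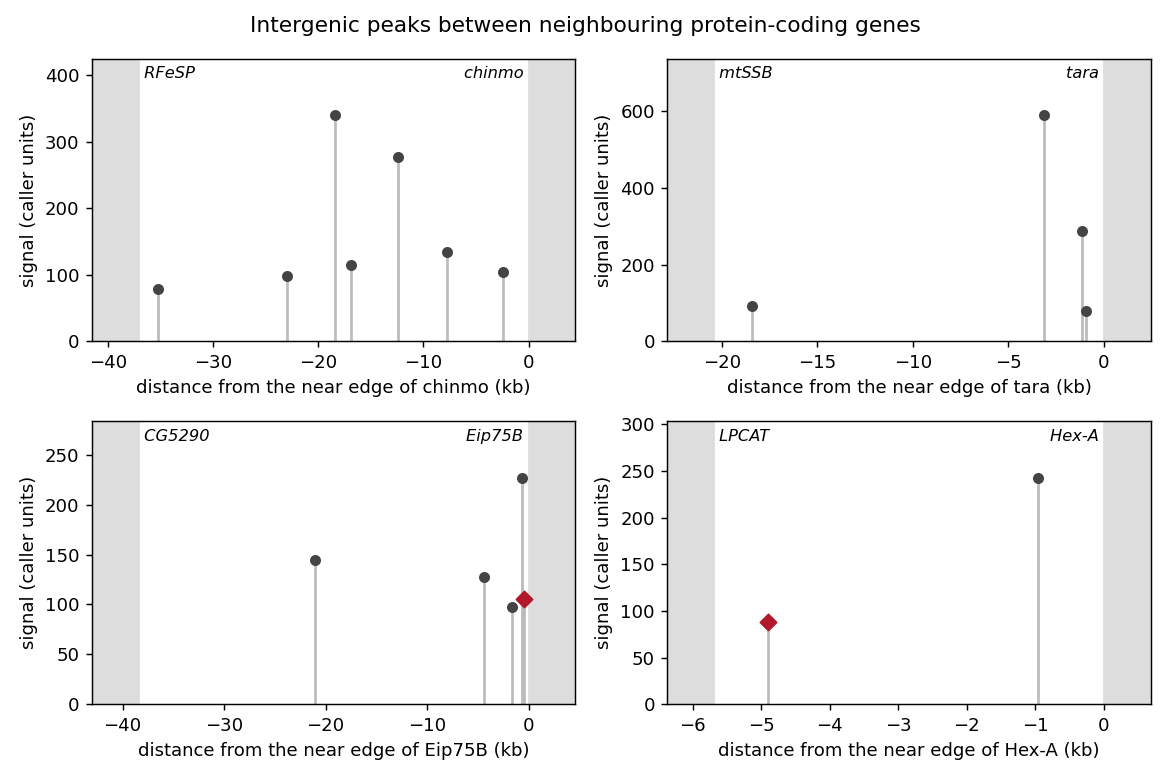
Signal of each intergenic peak (caller units) against its distance in kb from the near edge of the gene on the right, in the gaps RFeSP to chinmo, mtSSB to tara, CG5290 to Eip75B and LPCAT to Hex-A; grey bands are the flanking genes and red diamonds mark summit windows with the ERR motif. The near edge is the start of chinmo, tara and Hex-A and the 3' end of Eip75B. The 7 peaks between RFeSP and chinmo span 32788 bp. The strongest between mtSSB and tara, with a signal of 589, lies 3149 bp from the start of tara.

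Intergenic peaks were densest between diverging genes. With protein-coding flanks, 39.3% of the 257 (33.5 to 45.4) lay between genes transcribed away from each other, which make up 23.3% of the sequence. This was 11.9 peaks per Mb (9.68 to 14.4), against 5.57 (4.54 to 6.77) between genes in tandem and 6.89 (5.19 to 8.97) between converging genes. When genes of any type served as flanks, 79 peaks were in divergent gaps (30.7%, 25.4 to 36.6, against 20.3% of the sequence). A non-coding gene was nearest on at least 1 side for 130 of 257. Since starts lie at both ends of a divergent gap, its sequence is also nearer to starts, and the part of distance in this difference was not tested.

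A minority of flanking genes, as of all protein-coding genes, carried an ERR peak at their own promoter. The 257 peaks were flanked by 360 protein-coding genes, 2.58% of the 13945 annotated. Of the 360, 71 (19.7%, 15.9 to 24.1) had an optimal peak at their promoter, against 15.1% of all protein-coding genes. For 163 of 257 peaks (63.4%) neither neighbour had one, and for 22 both had. Hex-A, which encodes a hexokinase, had an intergenic signal of 243 and a promoter signal of 660, and Atf3, which encodes a stress-responsive bZIP factor, had 216 and 450. At Gapdh1 the order was the reverse, with 852 for the intergenic peak beyond its 3' end and 283 for the promoter peak. The promoter peak was the higher in 37 of the 71 genes.

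The glycolysis list, 14 genes chosen with earlier results known, had 2 members beside an intergenic peak, Gapdh1 and Hex-A (14.3%, 4.01 to 39.9, against 2.58% of all protein-coding genes). Hex-A was flanked by 4 peaks. The one 953 bp upstream of its start (X, 9584570 to 9584842) had a signal of 243, with 134 in replicate 2 (rank 219) and 123 in replicate 3 (rank 151). Another, 4904 bp upstream and nearer to LPCAT, a lysophospholipid acyltransferase gene, had 88.1, with 52.7 (rank 1767) and 37.5 (rank 2115). The other 2 lay on the far side, before Gga, with signals of 123 and 80.7. Density beside the glycolysis genes was 217 peaks per Mb (79.7 to 473), from 6 peaks in 0.0276 Mb. That interval lies above the 7.05 of the whole class. It covers counting error only, and the 2 peaks beside Gapdh1 form 1 locus. No gene of the lists for trehalose and glycogen (9 genes), the TCA cycle (22) or lipid synthesis and storage (13) flanked an intergenic peak, but their gaps hold only 0.00301, 0.0446 and 0.00597 Mb of such sequence.

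Among nuclear receptor genes, 3 of 21 flanked a peak (14.3%, 4.98 to 34.6, against 2.58% of all protein-coding genes). Eip75B had the strongest at 227 (3L, 17950202 to 17950399), with signals of 141 in replicate 2 (rank 196) and 90.3 in replicate 3 (rank 301). Hr51 had one of 112, and Hr38, the fly NR4A receptor, had one of 72.5 that lay 624 bp from its start. Of 15 genes for sugar and stress response factors, 3 flanked a peak (20%, 7.05 to 45.2, against the same 2.58%). Atf3 had 2 peaks, of 216 and 71.5, and foxo, the forkhead factor of insulin signalling, had 2, of 137 and 120, at 4655 and 3330 bp upstream. Myc had one of 74.985 at 12555 bp from its start. The foxo peaks ranked 533 and 1018 in replicate 2 and 1587 and 1095 in replicate 3. Beside the nuclear receptor genes there were 27.4 peaks per Mb (11.0 to 56.4), with 5 of the 7 peaks at Eip75B. Beside the sugar and stress response factors there were 54.2 per Mb (17.6 to 126), from 5 peaks. Both intervals lie above the 7.05 of the whole class, rest on few genes and were not tested.

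Of 36 patterning and Hox genes, 5 flanked a peak (13.9%, 6.08 to 28.7, against 2.58%). A single peak of 211 lay between the forkhead genes slp1 and slp2 (2L, 3832411 to 3832604), 4309 bp upstream of slp2, with 103 in replicate 2 (rank 415) and 105 in replicate 3 (rank 214). A peak of 183 lay between the Hox gene abd-A and Glut3. It was 8370 bp beyond the 3' end of abd-A and 29261 bp from the start of that gene. The genes tup and wg had weaker ones of 81.7 and 78.1. The genes of this list sit in wide gaps. The density there, 5.89 per Mb (1.60 to 15.1), had an interval that includes the 7.05 of the whole class.

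The tissue lists held few genes, and 4 of them flanked a peak. They were 1 of 23 muscle genes (4.35%; Zasp52, of the muscle Z-disc, signal 85.1), 1 of 10 midgut genes (10%; fkh, 72.3) and 2 of 12 trachea and epidermis genes (16.7%; ple, 78.6, and vvl, 75.4), against 2.58% of all protein-coding genes. Peak densities beside the muscle, midgut, and trachea and epidermis genes were 13.7 (0.346 to 76.2), 11.3 (0.285 to 62.7) and 8.80 (1.07 to 31.8) per Mb. Each interval includes the 7.05 of the whole class. There were none of 19 neuron and glia genes, 16 fat body and blood genes or 9 germ line genes. Their gaps hold 0.147, 0.0643 and 0.00241 Mb of sequence of the class. Of 92 cytosolic ribosomal protein genes 2 were neighbours (RpLP0, 94.9, and RpS23, 88.9), a share of 2.17% against the same 2.58%. Of 591 tRNA, snRNA and snoRNA genes 6 were neighbours, all tRNA genes, a share of 1.02% against 2.14% of all genes of any type. These lists are small, and their shares were not tested against the background.

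The ERR motif was rare in intergenic peak windows and rarer still in intergenic sequence at large. It occurred in 6 of 257 (2.33%, 1.07 to 4.999), against 2.71% of intronic and 1.11% of promoter peak windows, and 0.455% of 180368 tiled windows of the same length with their centre in the intergenic class. A second background was the 514 windows centred 1000 bp to either side of the summits, some of which fall in genes, and the ERR motif was in 0.584% of these flanking windows. The motif is read on both strands and contains the core AAGGTCA and the half-site AGGTCA. The core was in 13 windows (5.06%, 2.98 to 8.46; tiles 1.79%, flanking windows 1.75%) and the half-site in 22 (8.56%, 5.72 to 12.6; tiles 5.08%, flanking windows 5.06%). Against intronic windows the ERR motif differed by -0.372 points (-2.25 to 2.45), and against promoter windows by 1.22 points (-0.176 to 3.91; two-sided Fisher's exact test, adjusted p = 1 and 0.262 over 34 comparisons). Within 50 bp of the summit lay 5 of 6 ERR, 12 of 15 core and 16 of 26 half-site match centres. The windows reach 100 bp to each side, so many matches would lie within 50 bp by placement alone. These counts are nested, and nearness to the summit was not tested. The core was in 10 of the 128 stronger peaks (7.81%) and 3 of the 129 weaker ones (2.33%).

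Of the 6 peaks with the ERR motif, 1 was among the strongest. That between CG8929 and CG16739 on 2R had a signal of 415 and ranked 76 in replicate 2 and 65 in replicate 3. The others had signals between 88.1 and 106. The match near Eip75B fell in the weaker of 2 overlapping peaks, whose signal was 106, and both overlap the same replicate regions. The hng3/CG13898 peak had 51.3 in replicate 2 (rank 1862) and 60.0 in replicate 3 (rank 756). The peak between Alp13 and Fmr1, the fly gene of the fragile X protein, had 57.4 (rank 1482) and 43.5 (rank 1505). At hemo/CG7694, where CG43210 and the kinase gene fray share the edges of the gap, it had 53.7 (rank 1713) and 37.6 (rank 2105). The core without the full motif was in 7 more windows, among them those of CG12824/Gapdh1 (852), RFeSP/chinmo (276), a second peak near Eip75B (128) and Hex-A/Gga (123).

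Patterns of 2 promoter factors, both known from housekeeping genes, were rarer in intergenic than in promoter peaks. TATCGATA, bound by the promoter factor DREF, was in 2 windows (0.778%), against 8.70% of promoter peak windows, a difference of -7.92 points (-9.42 to -5.56; Fisher's exact test, adjusted p = 4.59e-06). GGTCACACT, bound by the promoter zinc-finger factor M1BP, was in 1 (0.389%), against 4.46%, a difference of -4.07 points (-5.17 to -2.09; Fisher's exact test, adjusted p = 0.00725). In all intergenic tiles they occurred at 0.447% and 0.0904%. No share was counted over promoter sequence at large. The comparison therefore cannot tell a trait of the peaks from one of the promoter and intergenic sequence they lie in. In the flanking windows the DREF pattern was at 0.778%, the same share as in the peaks, and the M1BP pattern in 0 of 514, which allows a share of up to 0.584%. The M1BP pattern overlaps the half-site AGGTCA where an A precedes it. By the same exact test, the M1BP difference missed the threshold with replicate 2 left out (adjusted p = 0.0922) and with windows of 50 bp to each side (adjusted p = 0.307), and both missed it in the higher-signal 50% of peaks (0.0555 for DREF and 0.603 for M1BP).

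Against intronic peaks, 0 of the 17 patterns passed Fisher's exact test after adjustment, and 3 had an unadjusted p under 0.05. The nearest was TGTTTAC, read by forkhead factors, in 3.89% of intergenic and 9.02% of intronic windows (-5.13 points, -7.97 to -1.52; Fisher's exact test, adjusted p = 0.0753) and in 3.78% of tiles and 3.70% of flanking windows. Intergenic windows held GAGAGAG, of the GAGA factor, in 4.67% (tiles 2.18%, flanking windows 4.28%) and CAGGTAG, of the early activator Zelda, in 1.95% (tiles 0.884%, flanking windows 0.973%). They held the hypoxia response core ACGTG, which also lies within the E-box CACGTG, in 12.1% (tiles 15.0%, flanking windows 18.7%) and the E-box in 3.11% (tiles 2.21%, flanking windows 3.11%). TAATTA, read by homeodomains, was in 8.17% (tiles 14.3%, flanking windows 14.8%), TATAAAA in 6.23% (tiles 10.2%, flanking windows 11.1%), and TGACTCA or TGAGTCA, read by AP-1, in 0.389% (tiles 1.46%, flanking windows 2.33%). CACTTGA of Tinman was in 5.06% (tiles 3.70%, flanking windows 2.53%) and AGGNGGC of CTCF in 8.95% (tiles 6.83%, flanking windows 7.78%). GATA, preceded by A or T and followed by A or G, was in 35.4% (tiles 30.5%, flanking windows 29.4%) and the Mef2 pattern (TA, then 3 bases of A or T, then ATA) in 14.01% (tiles 19.6%, flanking windows 19.8%). Short patterns occur often by composition, and a match shows letters only.

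**Figure D4:**
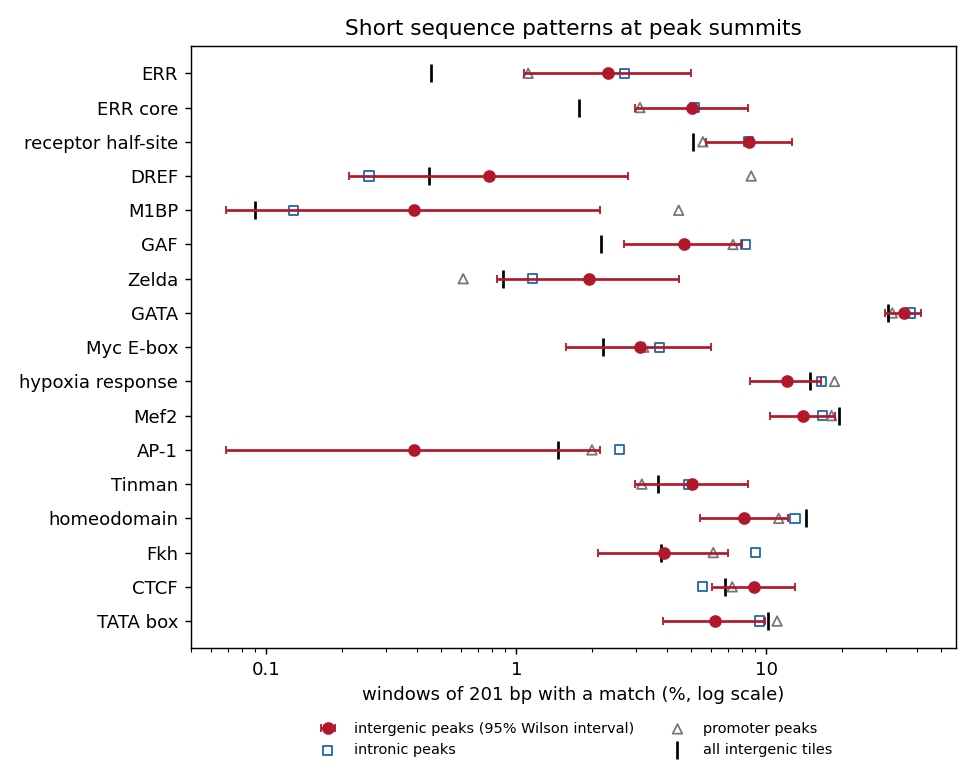
Share of summit windows, 100 bp to each side, with a match to each of 17 patterns (%, log axis) in intergenic peaks (red, with 95% Wilson intervals), intronic peaks (blue squares) and promoter peaks (grey triangles); black ticks are all tiles of the same length in intergenic sequence. DREF and M1BP patterns lay at 0.778% and 0.389% in intergenic and at 8.70% and 4.46% in promoter peaks.

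Few intergenic summits lay in annotated transposable elements. One summit of 257 (0.389%, 0.0687 to 2.17) fell in an annotated transposable element, although these cover 10.8% of the intergenic class. Repeat-masked bases made up 14.8% of the windows on average, against 26.6% of that sequence. For intronic peaks the shares were 16.8% of windows and 23.0% of sequence, and for promoter peaks 14.3% and 14.8%. Intergenic sequence 501 to 1000 bp from starts, with 67 of the peaks, was 20.4% masked, and that beyond 20000 bp, with 4, was 41.5% masked. The part of distance in this difference was not tested. How well reads align in repeats was not examined. GC content had medians of 39.3% in intergenic, 38.6% in intronic and 41.3% in promoter windows, and the median width was 404 bp in each class. The nearest other optimal summit lay at a median of 5301 bp (quartiles 1513 and 23596). It was a promoter peak for 117 (45.5%) and another intergenic peak for 103 (40.1%). Promoter peaks made up 62.0% of the optimal set and intergenic peaks 8.89%. Some of the 103 are overlapping peaks of 1 locus. For 69 of 257 (26.8%) the nearest other summit lay more than 20000 bp away.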

How the data were processed

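Peak lists deposited by the authors in narrowPeak format for dm6 were analysed: the optimal set of the irreproducible discovery rate, 1 pooled list and 1 list per replicate, the last 3 with 30000 regions each. The signal is the peak caller's own value, as deposited, and lists are not on 1 scale, so ranks stand beside it. Every optimal peak has a deposited −log10 q-value of 3.89, which therefore ranks nothing. The optimal set equals the top 2892 pooled regions by signal. Not given in the sources used here: aligner and caller. Lists on dm3 were not used here.

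Positions are 1-based dm6, and genes come from Ensembl release 115. Replicate values are those of the highest-signal region that overlaps a peak by at least 1 bp. Exact pattern matches on both strands were counted in windows reaching 100 bp to each side of the summit. Shares carry 95% Wilson intervals and were compared by two-sided Fisher's exact tests with Benjamini-Hochberg adjustment and a threshold of 0.05, in scipy 1.17.1 after tests on simulated data. Members, patterns, lists and tests were chosen with earlier results of these data known. Genes named by rule flank the 20 strongest intergenic peaks or those with the ERR motif, or are list members with the strongest peaks. Other genes were named after their values were seen. Where genes share a gap edge (6 of 257 peaks), 1 stands for it in counts. Alternatives were other distances and gene models, stricter and single-replicate sets, other overlaps, windows and motif forms.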

Additional observations from a re-analysis of the deposited data

How the results depend on the processing

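The share of optimal peaks called intergenic depends on the distance limit: it was 13.6% at 200 bp, 6.57% at 1000 bp and 4.15% at 2000 bp. It was 7.23% when the whole peak had to lie outside, and 11.5% with protein-coding models only. RefSeq gene models, an alternative added after seeing the data, changed the class of 0 peaks. How far these models are independent of those from Ensembl was not examined. Leaving out each replicate in turn gave 8.40% to 8.64%. The density ratio of intergenic to intronic peaks was 0.480, and 0.416 to 0.496 with 1 replicate left out. The ratio to promoter peaks was 0.0713, 0.0675 to 0.0702 with 1 replicate left out, and 0.0827 over unmasked bases, also an added alternative. The odds ratio of being in the top 25% by signal against intronic peaks was 0.882. It was 1.04 for the top 10%, and 0.883 to 1.02 with 1 replicate left out, never past the threshold.

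For recovery in replicate 3 against intronic peaks the odds ratio was 0.537. It was 0.608 with a reciprocal overlap of 50%, still past the threshold. It was 0.642 for summits within 100 bp, 0.838 with 1000 and 0.917 with 5000 top regions, each past the threshold no longer. Differences that had not passed turned direction without passing: 0.992 in replicate 2 against intronic peaks with 1000 regions and, with 5000 regions, 1.245 in replicate 2 and 1.83 in replicate 3 against promoter peaks, and 1.08 and 1.70 in both replicates against intronic and promoter peaks. Of 34 motif comparisons 2 passed, 1 with windows of 50 bp to each side (DREF; M1BP was lost), 3 with windows of 250 bp to each side, 1 to 2 with 1 replicate left out, and 0 (Fisher's exact test) in the 50% of higher signal, where 3 had an unadjusted p under 0.05. The ERR motif odds ratio against intronic peaks was 0.859, and 1.04 with windows of 250 bp to each side. Taking only the gene with the nearest start left 208 flanking genes of 360, and 11 of 19 listed ones. The divergent-gap density ratio stayed within its interval in each alternative. The causes of these shifts were not tested. No paired analysis was possible because there is 1 group. Read depth is unknown, so its limits could not be stated.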
